A study of Mus musculus with 31 samples.

Results

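Iron uptake, storage and export were followed through 9 genes in mouse embryonic fibroblasts (MEFs) infected to reprogram them towards pluripotency. The genes are Tfrc, Slc11a2, Steap3, Fth1, Slc40a1, Cp, Hmox1, Aco1 and Ireb2, each found by its symbol among the 19938 genes with a name of their own in the deposited array table. Each of the 9 is read by 1 probe set that carries no other symbol. The largest difference on day 8 lay in Tfrc, the transferrin receptor, which stood at log2 signals of 5.67 and 6.44 in the GFP cells of day 8 and at 10.05 and 9.90 in the 4-factor cells. Steap3, Fth1, Cp and Slc11a2 differed the other way and were lower in the 4-factor cells.

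Cells were infected at day 0 with retroviral vectors carrying 4 reprogramming factors (4F, being Oct4, Sox2, c-Myc and Klf4), the same factors minus c-Myc (3F), or the control gene GFP, and were kept in serum-containing medium. The 31 single-colour arrays comprise 2 of uninfected day 0 cells, 16 of 4F (2 each on days 1, 2, 3, 4, 5, 6 and 8, 1 each on days 10 and 12), 9 of GFP (2 each on days 1, 3, 5 and 8, 1 on day 12) and 4 of 3F (1 each on days 3, 5, 8 and 12). Groups with 2 arrays are titled as biological replicates, and replicate 1 was labelled from 120 ng of RNA against 300 ng for all other arrays. Each array holds a whole infected dish, so fewer cells of a type and less RNA per cell cannot be told apart. The strain and sex of the embryos and the share of infected cells are not given in the sources used here.

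Values are log2 signals as the authors deposited them, so a difference of 1 is a 2-fold change. Signals of different genes come from different probes and are not compared with each other. Array medians lay between 6.04 and 6.17, and replicate arrays correlated across genes with r from 0.974 to 0.993. A gene was called higher or lower where limma's moderated test, adjusted by Benjamini-Hochberg across the 19938 genes, gave p under 0.05, and errors given as ± are standard errors of that fit. The mean signal of 10 fibroblast markers was 9.89 and 10.03 on day 0, between 10.25 and 12.18 in GFP and between 8.96 and 10.24 in 4F. The mean of 10 pluripotency markers stayed between 5.37 and 5.68 in GFP and reached 8.40 in 4F and 8.69 in 3F. Markers of red blood cells (7 measured), hepatocytes (8) and macrophages (10), types that handle much iron, had array means of at most 5.58, 5.48 and 5.83 in every arm.

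Mammalian cells take up most of their iron as transferrin bound to the transferrin receptor (Tfrc). In the endosome the iron is reduced by a Steap protein, of which Steap3 is the one used by red cell precursors, and carried into the cytosol by the divalent metal transporter Slc11a2. Surplus iron is stored in ferritin, whose heavy chain Fth1 oxidises it, or leaves through ferroportin (Slc40a1), the iron exporter, with the help of the copper ferroxidase ceruloplasmin (Cp). Heme oxygenase (Hmox1) frees the iron of heme. The iron regulatory proteins encoded by Aco1 and Ireb2 bind iron-responsive elements when iron is scarce. This binding stabilises the Tfrc transcript but blocks translation of ferritin and ferroportin, and the latter effect is not read by an RNA measurement. Dividing cells are known for high transferrin receptor levels, and Tfrc is also a described target of c-Myc.

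The promoters of the 2 genes that moved farthest in opposite directions, Tfrc and Steap3, are shown as the bases before their outermost annotated starts (RefSeq, GRCm38.p6). Capitals mark a CCAAT box, which Tfrc has 1 of and Steap3 lacks in this window.
Tfrc, plus strand, chr16:32608646-32608895: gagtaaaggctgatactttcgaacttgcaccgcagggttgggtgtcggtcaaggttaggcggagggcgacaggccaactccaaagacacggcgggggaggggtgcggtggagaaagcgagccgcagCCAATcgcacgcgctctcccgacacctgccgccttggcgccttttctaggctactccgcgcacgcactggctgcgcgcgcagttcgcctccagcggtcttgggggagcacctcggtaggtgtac
Steap3, minus strand, chr1:120271082-120271330: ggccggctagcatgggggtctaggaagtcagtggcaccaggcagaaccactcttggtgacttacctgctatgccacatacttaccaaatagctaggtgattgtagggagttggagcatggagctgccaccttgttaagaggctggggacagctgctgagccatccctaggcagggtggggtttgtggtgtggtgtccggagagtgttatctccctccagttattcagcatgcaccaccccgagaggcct

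A second annotated Tfrc start lies 226 bases downstream of the first. The core of the hypoxia response element, ACGTG, was found before that start. It spans the first start, so it lies partly within the transcript that begins there. It is shown in capitals because hypoxia-inducible factor is a described regulator of the human gene.
Tfrc, plus strand, chr16:32608882-32608911: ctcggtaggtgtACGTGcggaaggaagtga

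The 250 bases before each annotated start were searched on both strands for 4 motifs. CACGTG, the E-box bound by Myc, occurred in 6.02% of 32851 mouse windows, the hypoxia core in 16.6%, TGACNNNGC, the core of the antioxidant response element, in 10.2%, and the CCAAT box in 33.8%. The second motif lies within the first, so their shares overlap. Windows were at hand for 6 of the 9 genes. Steap3 had 4, Tfrc, Fth1 and Cp 2 each, and Aco1 and Ireb2 1 each. None of these windows held the E-box or the antioxidant core. The Tfrc site shown was their only match to the hypoxia core. A CCAAT box stood in 1 window each of Tfrc, Steap3, Fth1 and Cp, and their other windows had none. The shares of mouse windows are per window and not per gene, so no excess is read from this. A match describes letters only, and its absence in this window says nothing of binding elsewhere.

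Tfrc was near its uninfected level in 4F cells and far below it in GFP cells. The day 0 arrays read 9.79 and 9.93. In GFP the arrays read 8.41 and 9.07 on day 1, 7.58 and 7.75 on day 3, 7.19 and 6.93 on day 5, 5.67 and 6.44 on day 8, and 5.34 in the single array of day 12. Each later GFP day lay below all arrays of the day before it, and every GFP array lay below both day 0 arrays.

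In 4F the arrays read 10.17 and 10.32 on day 1, 9.78 and 8.81 on day 2, 9.68 and 9.67 on day 3, 9.80 and 9.41 on day 4, 9.81 and 8.93 on day 5, and 9.79 and 9.27 on day 6. They read 10.05 and 9.90 on day 8, 9.45 on day 10 and 9.73 on day 12. The 16 4F arrays thus ran from 8.81 to 10.32 with a median of 9.75, and the lowest of them came from replicate 2 of days 2 and 5. In 3F the single arrays read 7.82 on day 3, 7.48 on day 5, 6.999 on day 8 and 9.05 on day 12. The first 3 of these lay below every 4F array, and the day 12 array lay inside the 4F range.

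**Figure D1:**
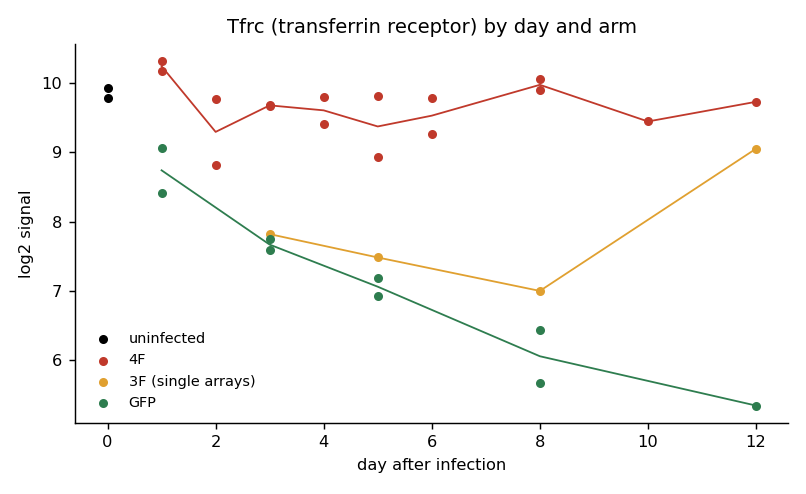
Log2 signal of Tfrc (vertical axis) against the day after infection (horizontal axis). Points are arrays and lines join the means of each day. GFP arrays go down from 8.41 and 9.07 on day 1 to 5.34 on day 12, 4F arrays stay between 8.81 and 10.32, and 3F stands at 6.999 on day 8 and at 9.05 on day 12.

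That Tfrc falls in GFP was known when the genes were chosen, so its GFP comparisons are given as sizes without a test. From day 0 to day 8 the GFP mean was lower by 3.804 ± 0.34 on the log2 scale, 14-fold. The 4F mean exceeded the GFP mean by 1.503 ± 0.34 on day 1, 2.01 on day 3, 2.31 on day 5 and 3.92 on day 8, the last being 15.1-fold. On each of these days both 4F arrays lay above both GFP arrays.

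In 4F itself, Tfrc was not called against day 0. The difference was 0.38 ± 0.34 on day 1 (adjusted p = 1 by limma) and 0.11 ± 0.34 on day 8 (adjusted p = 0.91), with a 95% interval for day 8 of -0.61 to 0.84. A change of up to that size is therefore not excluded by these arrays.

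Against 3F over days 3, 5, 8 and 12, 4F had more Tfrc by 1.84 ± 0.44 (limma, additive model of day and arm), a size given without a test. This model also holds the 7 GFP arrays, so the fall of Tfrc in GFP enters its day effects and spread. That spread includes changes of the arm differences over days and is not one of replicates alone. The 4F mean exceeded the 3F array by 1.86, 1.89, 2.98 and 0.68 on these days in turn. The difference was 1.66, 1.70 and 1.61 when the 3F array of day 3, day 5 or day 8 was left out in turn. With the replicate set as a block the difference was -0.03. All 3F arrays belong to the set without number, so the block places 3F through the day 12 arrays. It does so with 1 gap between 4F and GFP fitted over all days, so -0.03 is not the day 12 difference of 0.68. The 3F array exceeded the GFP mean by 0.15, 0.42, 0.94 and 3.71 on the same days, and it was largest on day 12, where both arms have a single array.

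Tfrc was set beside 14 cell cycle genes. Their mean log2 signal stood at 9.48 in uninfected cells, and on day 8 at 9.56 in 4F against 7.44 in GFP. On that day all 14 were called higher in 4F than in GFP, where 27.6% of all genes were called. In GFP the cell cycle mean was 9.01, 9.09, 8.47, 7.44 and 7.46 on days 1, 3, 5, 8 and 12, while Tfrc was already at a mean of 7.67 on day 3. In 3F the mean was 9.35, 9.31, 8.99 and 9.51 on its 4 days, at or above the 9.23 and 9.16 of 4F on days 10 and 12 for all but day 8. Tfrc in these 3F arrays of days 3 and 5 was 7.82 and 7.48 against 9.45 and 9.73 in the late 4F arrays. In 3F of day 12, which had the highest cell cycle mean of that arm, Tfrc was 9.05 and inside the 4F range. The part of cell division in the Tfrc values was not tested.

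**Figure D2:**
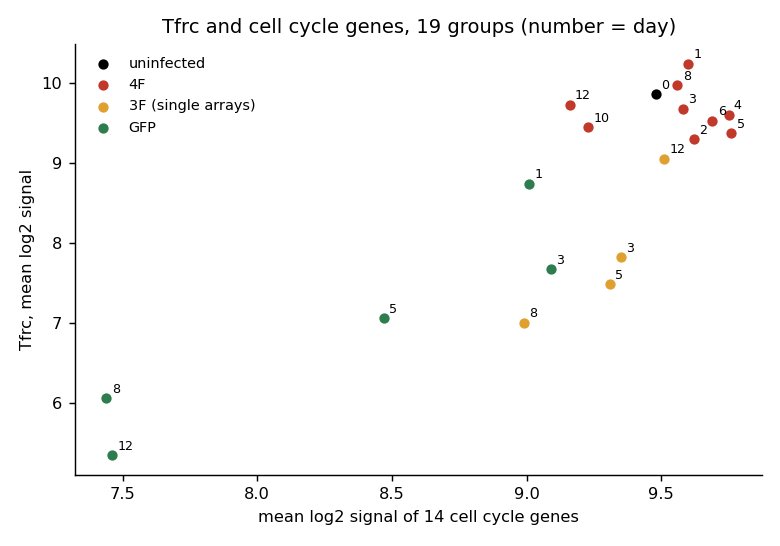
Mean log2 signal of Tfrc (vertical) against the mean log2 signal of 14 cell cycle genes (horizontal) in the 19 groups, with the day printed beside each point. GFP of days 8 and 12 lies lowest on both axes, and 3F of days 3, 5 and 8 lies at 7.82, 7.48 and 6.999 for Tfrc with cell cycle means of 9.35, 9.31 and 8.99. 3F of day 12 lies at 9.05 for Tfrc and 9.51 for the cell cycle genes.

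Of all genes, the 3 whose group means followed those of Tfrc most closely were Ruvbl2 (Pearson r = 0.968 over 19 groups), a helicase of chromatin complexes, Cdt1 (r = 0.966), which licenses replication origins, and Pcid2 (r = 0.953). These groups share arms and days, so the values describe a likeness in these arrays only.

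Steap3 was the member that rose most in GFP. Its arrays read 7.72 and 7.76 on day 0, and in GFP 7.84 and 8.20 on day 1, 8.65 and 7.99 on day 3, 9.03 and 8.69 on day 5, 10.17 and 9.53 on day 8, and 10.43 on day 12. The 16 4F arrays ran from 7.07 on day 3 to 7.80 on day 12 with a median of 7.52. All GFP arrays lay above every 4F array. The rise in GFP from day 0 to day 8 was 2.11 (adjusted p = 8.8e-06), or 4.31-fold. The 4F minus GFP difference was -0.30 ± 0.21 on day 1 (adjusted p = 0.68), then -1.18 ± 0.21 on day 3 (adjusted p = 0.0021), -1.38 on day 5 (adjusted p = 0.00028) and -2.40 on day 8 (adjusted p = 1.2e-06, all limma). In 3F the arrays read 7.28, 7.64, 8.32 and 8.33 on days 3, 5, 8 and 12, lower than GFP on each of these days. Over them 3F was below GFP by a difference of -1.41 ± 0.23 (adjusted p = 0.00064).

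Slc11a2, the endosomal iron transporter, showed a smaller split. Its day 0 arrays read 8.21 and 8.26. The 7 GFP arrays of days 3 to 12 had a lowest value of 8.34, a median of 8.68 and a highest of 8.97, and the 12 4F arrays of the same span had 7.36, 8.00 and 8.31. The 2 sets of arrays did not overlap, and the lowest 4F values, 7.36 and 7.41, were the single arrays of days 10 and 12. 4F was lower than GFP by -0.64 on day 5 (adjusted p = 0.0092) and -0.73 on day 8 (adjusted p = 0.0025). On day 3 the difference of -0.51 ± 0.16 did not pass (adjusted p = 0.051). It did with the replicate set as a block (adjusted p = 0.028). The difference was -0.67 without 4F replicate 2 and -0.82 without GFP replicate 2, sizes that rest on 1 array in a group. The day 5 call was lost without 4F replicate 2 (-0.52) or without GFP replicate 1 (-0.56).

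Against day 0, Slc11a2 in GFP of day 8 was higher by 0.50 ± 0.16 (adjusted p = 0.038), a call lost on leaving out any of the 4 arrays behind it (0.44 to 0.56). In 3F the arrays of 8.14, 8.08, 7.78 and 7.75 lay below every GFP array of days 3 to 12. The 3F minus GFP difference was -0.68 ± 0.12 (adjusted p = 0.0014), and with the block it was -0.59 (adjusted p = 0.14).

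Fth1, the heavy chain of ferritin, moved both ways from its start. Day 0 read 11.99 and 11.94. GFP read 11.86 and 12.12 on day 1, 12.05 and 12.04 on day 3, 12.36 and 12.39 on day 5, 12.73 and 12.45 on day 8, and 12.70 on day 12. 4F read 11.84 and 11.89 on day 1, 11.52 and 11.71 on day 5, 11.08 and 11.41 on day 8, 11.59 on day 10 and 11.69 on day 12. From day 3 on, all 12 4F arrays lay below the 7 GFP arrays.

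By day 8 Fth1 had fallen in 4F by 0.72 from day 0 (adjusted p = 0.0016) and had risen in GFP by 0.63 ± 0.13 (adjusted p = 0.0032). The rise in GFP was 0.49 with an adjusted p of 0.053 when replicate 1 of GFP day 8 was left out. The 4F minus GFP difference was -0.76 ± 0.13 on day 5 (adjusted p = 8e-04) and -1.35 on day 8 (adjusted p = 3.1e-06). 3F, at 11.84, 12.13, 11.91 and 11.95, was lower than GFP by -0.45 (adjusted p = 0.045). That call was lost with the block (-0.66, adjusted p = 0.18) and on leaving out any 3F array or GFP replicate 1 or 2 of day 5, replicate 1 or 2 of day 8, or day 12 (-0.51 to -0.38). Ferritin has close gene copies whose probes can share signal, which was not examined.

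**Figure D3:**
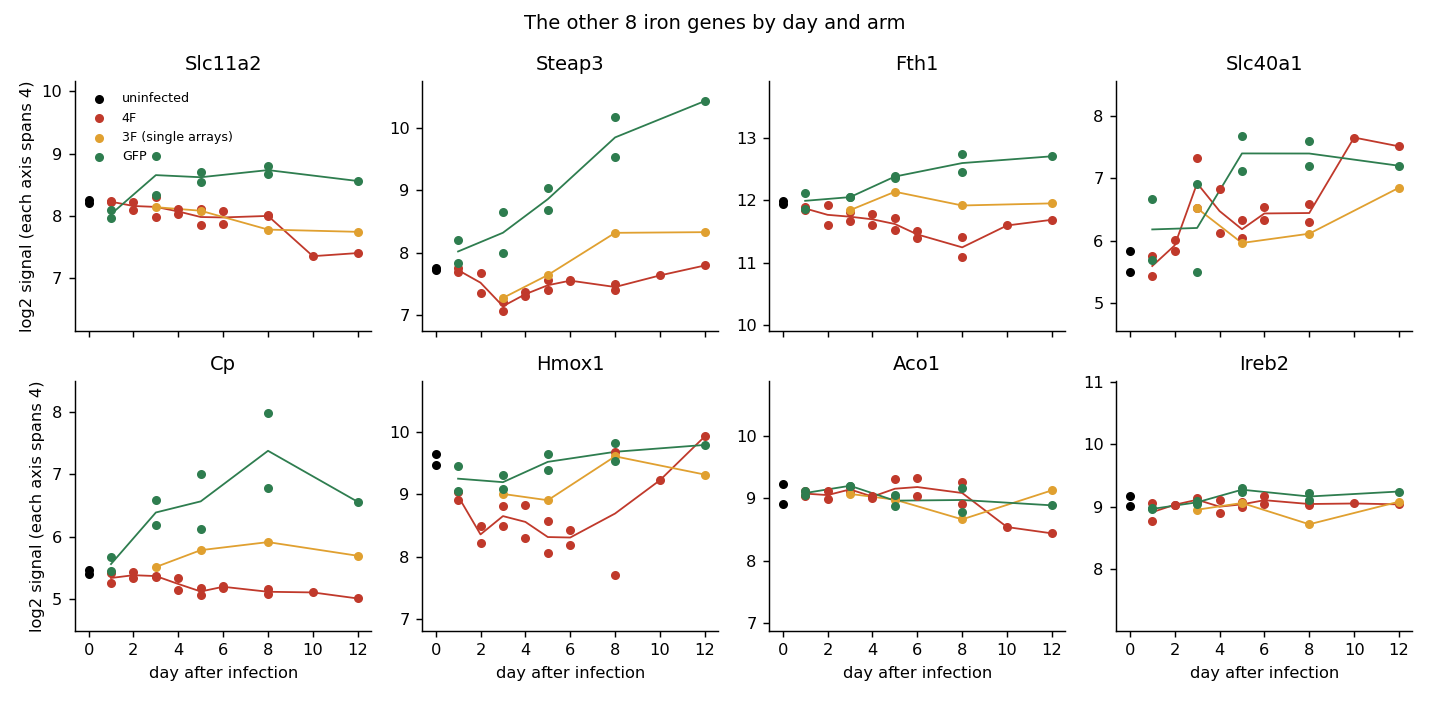
Log2 signal (vertical axes, each spanning 4 units) against the day after infection (horizontal axes) for the 8 genes other than Tfrc. Points are arrays and lines join day means. Steap3 climbs to 10.43 and Cp to 7.98 in GFP while 4F stays at or below 7.80 and 5.44, and Aco1 and Ireb2 stay between 8.44 and 9.32 in all arms.

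Slc40a1, the iron exporter ferroportin, was dim on day 0 (5.84 and 5.50), with higher values in both virus arms later. GFP read 6.67 and 5.69 on day 1, 6.90 and 5.51 on day 3, 7.67 and 7.12 on day 5, 7.59 and 7.20 on day 8, and 7.20 on day 12. 4F read 5.75 and 5.44 on day 1, 7.32 and 6.52 on day 3, 6.32 and 6.04 on day 5, 6.31 and 6.58 on day 8, 7.65 on day 10 and 7.51 on day 12. The highest 4F values stood on days 10 and 12, where there are no replicates. Replicates of Slc40a1 differed widely, with replicate 1 above replicate 2 in 10 of the 12 replicated groups by 0.46 on average.

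Slc40a1 rose in GFP by 1.73 ± 0.41 from day 0 to day 8 (adjusted p = 0.0071), a call lost without replicate 1 of GFP day 8 (1.53) or replicate 2 of day 0 (1.56). In 4F the day 8 difference from day 0 was 0.77 ± 0.41 (adjusted p = 0.27). On day 5, 4F was lower than GFP by -1.21 ± 0.41 (adjusted p = 0.049), a call lost on leaving out any of the 4 arrays (-1.49 to -0.94). On day 8 the difference of -0.95 was not called (adjusted p = 0.11), and it was with the replicate set as a block (adjusted p = 0.021). 3F read 6.52, 5.96, 6.11 and 6.85, with a difference from GFP of -0.73 ± 0.35 (adjusted p = 0.18) that passed without replicate 2 of GFP day 3 (-0.99).

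Cp, the ferroxidase ceruloplasmin, lay below the array medians in all day 0, 4F and 3F arrays. Day 0 read 5.474 and 5.399, and the 16 4F arrays ran from 5.01 to 5.44 with a median of 5.20. GFP read 5.68 and 5.45 on day 1, 6.596 and 6.187 on day 3, 7.01 and 6.13 on day 5, 7.98 and 6.78 on day 8, and 6.56 on day 12. Every GFP array lay above every 4F array. Cp rose in GFP by 1.94 ± 0.30 from day 0 to day 8 (adjusted p = 0.00025). The day 0 level was about that of the hepatocyte markers (array means of 5.26 and 5.33), so the size on a linear scale is not given.

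The 4F minus GFP difference of Cp was -1.02 ± 0.30 on day 3 (adjusted p = 0.037), -1.44 on day 5 (adjusted p = 0.0025) and -2.26 on day 8 (adjusted p = 4e-05). The day 3 call was lost without 4F replicate 1 (-1.01), 4F replicate 2 (-1.03) or GFP replicate 1 (-0.81). 3F read 5.52, 5.79, 5.92 and 5.70, above all 4F arrays and below the GFP arrays of days 3 to 12. It was lower than GFP by -1.002 ± 0.24 (adjusted p = 0.0094), which with the block was -0.87 (adjusted p = 0.22).

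Cp is also an acute phase gene, and other genes of that response were high in the same cells. Of 9 measured acute phase genes 5 rose in GFP from day 0 to day 8, where 20.1% of all genes were called, with a median of 0.96 against 0.02 over all genes. On day 8, 4 of them were lower in 4F than in GFP, where 27.6% of all genes were called, led by Serpina3n (-5.85 ± 0.50) and Saa3 (-4.29 ± 0.52). Their part in the Cp values was not tested.

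Hmox1, which breaks down heme, stood lower in the early 4F arrays. Day 0 read 9.65 and 9.47, and the 9 GFP arrays ran from 9.05 to 9.82 with a median of 9.46. 4F read 8.91 and 9.03 on day 1, 8.22 and 8.49 on day 2, 8.50 and 8.80 on day 3, 8.29 and 8.82 on day 4, 8.06 and 8.57 on day 5, and 8.18 and 8.44 on day 6. On day 8 the 4F replicates parted, at 7.70 and 9.69, and days 10 and 12 read 9.23 and 9.93. All 14 4F arrays up to day 8 but replicate 2 of day 8 thus lay below both day 0 arrays and every GFP array.

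None of the fixed comparisons called Hmox1. The 4F minus GFP difference was -1.20 ± 0.42 on day 5 (adjusted p = 0.055, and 0.013 with the replicate set as a block) and -0.99 ± 0.42 on day 8 (adjusted p = 0.1, and 0.032 with the block). Without replicate 2 of 4F day 8 it was -1.98. That leaves 1 array in the group and takes the widest replicate gap of Hmox1 out of the spread, so only sizes are given. The difference of 4F day 8 from day 0 likewise went from -0.87 (adjusted p = 0.21 with all arrays) to -1.86 without that array. The change of the 4F minus GFP difference from day 1 to day 8 went from -0.71 to -1.70. 3F read 9.01 and 8.90 on days 3 and 5, below both day 0 arrays and every GFP array, and 9.61 and 9.32 on days 8 and 12.

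The 2 iron sensors varied least. Aco1, which makes cytosolic aconitase and, without its iron-sulfur cluster, the first iron regulatory protein, ran from 8.44 to 9.32 over all arrays. Its lowest arrays were 4F of days 12 and 10, at 8.44 and 8.54, and it was not called in any of the 11 comparisons. Ireb2, the second iron regulatory protein, ran from 8.72 in 3F of day 8 to 9.31 in GFP of day 5. On day 8 the 4F minus GFP differences had 95% intervals of -0.21 to 0.43 for Aco1 and -0.32 to 0.08 for Ireb2. Ireb2 was called only as lower in 3F than in GFP (-0.23 ± 0.06, adjusted p = 0.018). That call was lost with the block (-0.12, adjusted p = 0.64), with a prior that follows the mean signal (adjusted p = 0.073) and without the 3F array of day 8 (-0.16, adjusted p = 0.11). The RNA-binding activity of both proteins was not measured.

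Counted over the 8 members other than Tfrc, more differed between 4F and GFP on days 5 and 8 than on day 1, as among all genes. Tfrc, whose direction was known, is left out of the counts against GFP and of those within GFP, which are over the other 8 members. On day 1 limma called 0 of the 8, where 1.81% of all genes were called. The count was also 0 at an unadjusted p under 0.05, which 2561 of the 19938 genes had. It was 0 again with the replicate set as a block, where 924 genes were called. On day 3, 2 of the 8 were lower in 4F (11.9% of all genes called), on day 5, 5 (21.4%), and on day 8, 4 (27.6%). The median difference of the 9 on day 8 was -0.95 against -0.03 over all genes. Between day 1 and day 8 the difference itself changed downwards in 4 of the 8, where 8.49% of all genes were called.

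Set against day 0 on day 8, 5 of the 8 were called in GFP and 1 of the 9 in 4F. In GFP Slc11a2, Steap3, Fth1, Slc40a1 and Cp rose, where 20.1% of all genes were called. In 4F Fth1 fell, where 15.9% were called. Both comparisons share the day 0 arrays. The median of the 9 was 0.50 in GFP against 0.02 over all genes, and -0.23 in 4F against 0 over all genes. On day 1 limma called 0 of the 9 in 4F and 0 of the 8 in GFP against day 0, where 0.838% and 0.0903% of all genes were called. Both counts were again 0 at an unadjusted p under 0.05, which 1514 of the 19938 genes had in 4F and 1761 in GFP. With the replicate set as a block both were 0 too, where 369 and 143 genes were called.

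**Figure D4:**
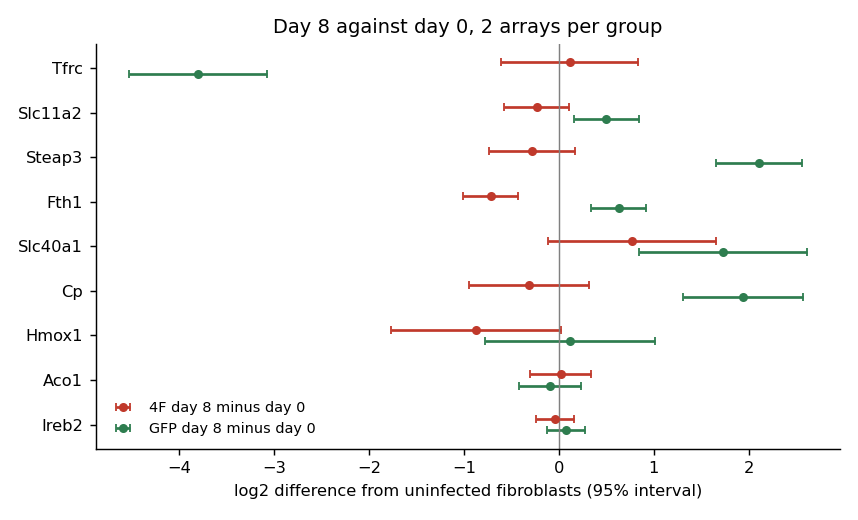
Log2 difference from uninfected day 0 cells (horizontal) for each of the 9 genes in 4F and in GFP on day 8, with 95% intervals from limma and 2 arrays per group. Tfrc lies at -3.804 in GFP and 0.11 in 4F, Steap3 at 2.11 and Cp at 1.94 in GFP, and Fth1 at 0.63 in GFP and -0.72 in 4F. The interval drawn for Tfrc in GFP is not read as a test.

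Without c-Myc, 5 of the 8 were lower than in GFP over days 3 to 12 (Slc11a2, Steap3, Fth1, Cp and Ireb2), where 18.3% of all genes were called. With the replicate set as a block 1 of the 8 was called, where 2772 of the 19938 genes were. It was Steap3, which was lower (-1.68, adjusted p = 0.029). The Tfrc difference with the block was 3.01, given as a size only. Between 4F and 3F none of the 8 was called, where 9.63% of all genes were called. With the block 0 were called, where 14 of the 19938 genes were. At an unadjusted p under 0.05, which 4694 of the 19938 genes had, 2 of the 8 were lower in 4F. The 3F arm has no replicates, so its days stand in for them, and the 2 comparisons share the 3F arrays.

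The wider iron pathway was read from lists of other genes, none of them among the 9. Among 12 genes of uptake and reduction, 7 were lower in 4F than in GFP on day 8, where 27.6% of all genes were called, with a median of -0.99 against -0.03 over all genes. The largest differences were in Lcn2 (-3.18 ± 0.62), which binds bacterial iron carriers, and Steap4 (-3.08 ± 0.65), a metalloreductase. From day 0 to day 8 in GFP, 7 of the 12 rose, where 20.1% of all genes were called, Steap4 by 5.73 and Lcn2 by 3.31. These 7 were not all among the 7 lower in 4F. From day 0 to day 8 in 4F, 3 of the 12 rose and 3 fell, where 15.9% of all genes were called. On day 5, 6 were lower in 4F than in GFP and 1 was higher (21.4% of all genes called). The genes called between 4F and GFP on day 8 were thus higher in the arm in which Tfrc was lower, though not all of them had risen there. Lcn2 is also an acute phase gene.

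Of 5 other storage genes 2 differed between 4F and GFP on day 8, where 27.6% of all genes were called. Pcbp1, a chaperone that brings iron to ferritin, was higher in 4F (0.57 ± 0.12) and Ftl1, the ferritin light chain, lower (-0.40 ± 0.10). Their median was -0.04. The other storage genes measured, Ftmt, Ncoa4 and Pcbp2, did not pass.

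Among 11 genes of export and hepcidin control, 2 were lower in 4F on day 8, where 27.6% of all genes were called, so the count is no more than the background. They were Neo1 (-1.54 ± 0.24), a hemojuvelin receptor, and Hfe (-0.66 ± 0.14), a partner of the transferrin receptor. The list's median was -0.22. Of 8 sensing genes and genes with an iron-responsive element 3 differed, a share near the same background. Hif1a (-2.28 ± 0.20), a hypoxia-inducible factor, and Fbxl5 (-1.16 ± 0.17), which marks the Ireb2 protein for destruction when iron is ample, were lower in 4F. Cdc14a, a phosphatase, was higher (1.12 ± 0.19). In GFP, Hif1a and Fbxl5 rose from day 0 to day 8 by 1.75 and 1.12.

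Of 19 genes of mitochondrial iron and iron-sulfur cluster assembly, 7 were higher in 4F than in GFP on day 8 and 2 lower, where 27.6% of all genes were called, with a median of 0.30. Lyrm4, a part of the cluster assembly complex, was higher by 1.01 ± 0.13 and Hspa9, a mitochondrial chaperone, by 0.73 ± 0.13, while the assembly factor Isca1 (-0.80 ± 0.25) and Iscu, the assembly scaffold (-0.60 ± 0.16), were lower. From day 0 to day 8 in GFP 10 of the 19 fell, where 20.1% of all genes were called, Hspa9 by 1.14 and Lyrm4 by 0.44, and in 4F 2 rose and 3 fell (15.9% of all genes called).

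The heme list was mixed. Of 17 genes 4 were higher and 2 lower in 4F on day 8, a share near the 27.6% of all genes called. The higher ones were led by Blvra (1.499 ± 0.23), a biliverdin reductase that acts after Hmox1, and Flvcr1 (1.14 ± 0.26), a heme exporter. Slc48a1 (-1.02 ± 0.15), a heme transporter of the endosome and lysosome, and Bach1 (-1.003 ± 0.30), a repressor of Hmox1, were lower in 4F. Of 9 genes of the oxidative stress response to which Hmox1 also belongs, 2 differed, again near the 27.6% of all genes. Gclc, for glutathione synthesis, was higher (1.18 ± 0.27) and Srxn1 lower (-1.05 ± 0.25).

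**Figure D5:**
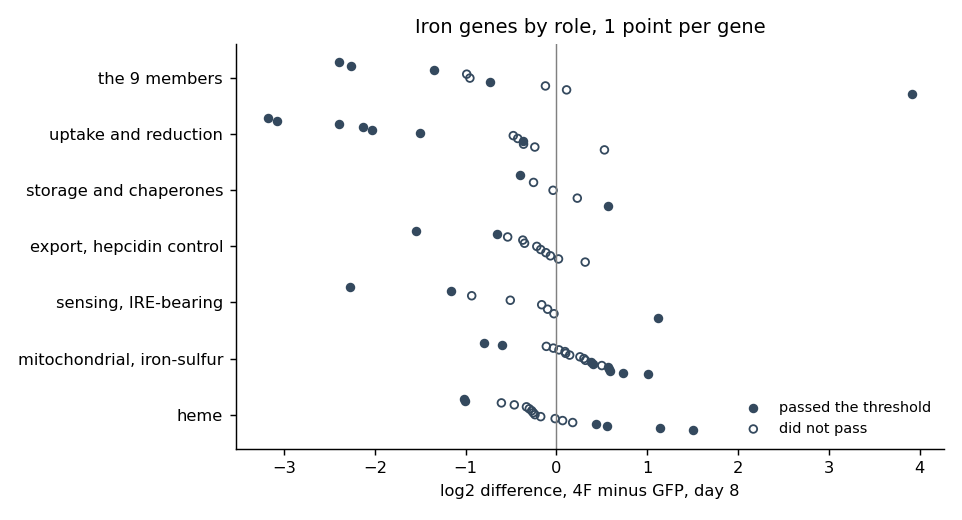
Log2 difference of 4F minus GFP on day 8 (horizontal) for the 9 members and for 6 lists of other iron genes, 1 point per gene, filled where the gene passed the threshold. Tfrc, shown for its size only, stands at 3.92, and the fill of its point is not read as a test. Uptake genes reach -3.18, and the mitochondrial list has 7 genes above 0 and 2 below it among those that passed.

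Macrophages carry much Hmox1 and Slc40a1, so their markers were read beside these genes. The mean of 10 markers was 5.16 to 5.66 in 4F and 5.43 to 5.83 in GFP, and 3 of them exceeded 6 in any 4F array and 4 in any GFP array. On day 8, 2 of the 10 were lower in 4F than in GFP (27.6% of all genes called), and 1 rose in GFP from day 0 (20.1%). Their part in the values of Hmox1 and Slc40a1 was not tested.

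The genes most like the other members over the 19 group means were led by Igfbp4 for Steap3 (r = 0.979), Tenm3 for Slc11a2 (r = 0.962), 1600012H06Rik for Fth1 (r = 0.965), Ch25h for Cp (r = 0.955), Sdc4 for Hmox1 (r = 0.919), Armc1 for Aco1 (r = 0.928), Calcoco1 for Slc40a1 (r = 0.872) and Upf2 for Ireb2 (r = 0.861). Hif1a was the second closest to Cp (r = 0.950). These values are descriptions over groups that share arms and days.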

How the data were processed

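The deposited table holds log2 signals of 31 Affymetrix arrays, 1 column per array; the authors' normalization is not stated there or in the labels, and no other was added. Of 28853 rows, 21789 carry 1 gene symbol by the platform annotation, and for each of 19938 genes the row with the highest mean was kept. Groups were compared with limma 3.58.1 (R 4.3.3). A mean for each group was estimated from the 31 arrays (12 residual and 2.68 prior degrees of freedom), and day plus arm from 18 arrays of days 3, 5, 8 and 12 for 3F (12 residual, 2.26 prior). Calculations were tested on simulated data. The source field of 3F arrays says 4 factors while listing 3, and titles decided.

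The labels tie replicate 1 to its own labelling amount, so the number was taken to pair samples. Replicate differences of 66 pairs of groups correlated at 0.081 to 0.69 across genes (median 0.32), 65 of them over 0.1. Members and lists were chosen with earlier results of these data known. Named genes are the 9 members, for each up to 3 most alike, and per list the 2 largest rises and 2 largest falls called on day 8. Alternatives were the replicate block, quantile normalization, a mean signal of at least 6, the mean of a gene's rows, a prior following the mean signal, and leaving out each replicate.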

Additional observations from a re-analysis of the deposited data

Results flagged for a closer look

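The 4F minus GFP difference itself was set against its day 1 value on day 8, by limma's contrast of the 2 differences. For Tfrc it was larger by 2.42 ± 0.48, from 1.503 to 3.919, a size given without a test because the fall in GFP was known beforehand. Of the other 8 genes 4 changed downwards: Steap3 by -2.10 ± 0.30 (adjusted p = 0.00055), Cp by -2.03 ± 0.42 (adjusted p = 0.0068), Fth1 by -1.23 ± 0.19 (adjusted p = 0.00097) and Slc11a2 by -0.93 ± 0.23 (adjusted p = 0.017). The Slc11a2 call was lost without 4F day 1 replicate 2 (-0.93), GFP day 1 replicate 2 (-0.87) or GFP day 8 replicate 1 (-0.87).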

How the results depend on the processing

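With 2 arrays per group or fewer, counts over all genes depended on single arrays. Leaving out 1 replicate at a time gave 23 to 308 genes for 4F against GFP on day 1 (361 with all arrays), 1134 to 2384 on day 3 (2378), 2427 to 3508 on day 5 (4265), 922 to 1578 for day 8 minus day 1 (1693), 29 to 61 for 4F day 1 against day 0 (167), 3 to 42 for GFP day 1 (18), 1958 to 2708 for 4F day 8 (3169) and 440 to 2848 for 4F against 3F (1921). Members called for 3F against GFP then numbered 3 to 6 (5 with all arrays), and Tfrc was never among them. For 4F against 3F, 0 of the members other than Tfrc were called whichever array was left out. In the comparisons of single days, leaving out a replicate leaves 1 array in a group. Their member counts are therefore not given, and the sizes stand with each gene.

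With the replicate block, which uses the pairing by number, the counts were 924 on day 1, 3749 on day 3, 2820 for day 8 minus day 1, 369 for 4F day 1, 143 for GFP day 1 and 14 for 4F against 3F. Of the members other than Tfrc, 1 was then called for 3F against GFP. Of these members 0 were called for 4F against 3F, where the Tfrc difference, a size only, was -0.025. In both, the block places 3F through the day 12 arrays, with 1 gap between 4F and GFP fitted over all days. Outside the changes named with each gene, and with Tfrc against GFP and against 3F left aside, the block changed no other member call. The mean signal filter, which removes Cp, left 7 genes for GFP day 1. Under quantile normalization the 4F minus GFP difference of Tfrc on day 1 was 1.47, given as a size only. The cause of these changes was not tested.

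Of 1042 member values under alternatives, 45 that were called in neither setting changed sign, the largest 0.99 in size. Each member has 1 row, so another row could not be tried. Among settings that keep every array, further calls gained were Slc11a2 on day 3 (-0.55 under quantile normalization, -0.51 under the filter) and Hmox1 on day 5 (-1.20 under the filter and under the prior with trend). Cp and Slc40a1 lay below the array medians on day 0, and signal over background was not measured.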
